A study of Homo sapiens with 8 samples.

Results

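The genes described here are 9 human genes of the actin cytoskeleton and of the scaffolds linked to it: DST, MACF1, PLEC, FLNA, ACTN1, ACTB, MYH9, AHNAK and AKAP12. They are 9 of the 9046 gene identifiers that carry a peak in either of the 2 deposited lists. They were chosen by their measured peak numbers, since DST, AHNAK and AKAP12 were known to carry many peaks, and no numeric limit was set. Peak numbers are therefore given below as a description, with no test. The shared name for the genes, giant actin-linked scaffolds with many peaks, covers only some of them: ACTB encodes actin itself and has a span of 3454 bases, and ACTB and ACTN1 carry 2 and 3 SiHa peaks.

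The study sequenced RNA captured with an antibody against N4-acetylcytidine (ac4C), together with input RNA, from SiHa cells, a squamous carcinoma line of the cervix. The 4 groups were immunoprecipitated RNA and input RNA of NAT10-knockout SiHa cells (KONAT10SiHa) and immunoprecipitated RNA and input RNA of SiHa cells. Each group had 2 biological replicates, or 8 libraries in all, made with a stranded mRNA kit. How NAT10 was knocked out, and whether the knockout population is 1 clone, is unknown here. The authors deposited 1 peak list per population, with no value of a single library and no read counts, so the depth is unknown and no difference could be set against the spread between replicates. The list whose name adds a K to SiHa was read as the knockout list, which no label states in words.

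NAT10 is the acetyltransferase that places ac4C on RNA. The modification is well established in ribosomal and transfer RNA, and antibody capture has been used to map it in messenger RNA. The genes followed here build and anchor the actin network that gives a carcinoma cell its shape, tension and adhesion. Spectraplakins and plectin tie actin to microtubules and intermediate filaments, filamin and alpha-actinin crosslink actin filaments, nonmuscle myosin pulls on them, and AHNAK and AKAP12 hold signalling and membrane proteins close to the cell cortex.

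The knockout list held 4557 peaks under 3726 identifiers, and the SiHa list held 12924 peaks under 7291. NAT10 itself had 0 knockout peaks and 1 SiHa peak on GRCh38 chromosome 11, between bases 34142274 and 34146283. Its −log10 p was 36.3, where p is the value the authors give for a peak, used throughout as a description of its strength. Of 11 epithelial marker genes, 3 had a knockout peak and 4 a SiHa peak. KRT8 and KRT19 had peaks in both lists, KRT18 in the knockout list alone, and KRT5 and EPCAM in the SiHa list alone. Of 7 markers of other cells, 5 had a knockout peak and 3 a SiHa peak, namely ALB, HBA1 and HBB in both lists and PTPRC and PECAM1 in the knockout list alone. COL1A1 and DES had no peak in either list. No share over all genes was computed for these marker counts. A peak needs a transcript that is present and is not itself a level of that transcript. Fewer cells with a transcript and less of it per cell cannot be told apart in these bulk samples.

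The 9 genes carried 21 knockout peaks and 105 SiHa peaks, a ratio of 0.2, against 0.353 over all peaks of the lists. Knockout peaks of the 9 genes covered 3890 bases and SiHa peaks 37667, a ratio of 0.103, against 0.248 over all peaks. The choice of the genes by peak number bears on both ratios, and no ratio was computed for other genes with many peaks. MACF1 had 7 knockout peaks and 27 SiHa peaks, DST 3 and 26, AHNAK 6 and 17, FLNA 4 and 11, and PLEC 1 and 6. MYH9 had 0 knockout peaks and 8 SiHa peaks, AKAP12 0 and 5, ACTN1 0 and 3, and ACTB 0 and 2. With 1 list per population the neighbours in this order cannot be told apart by any replicate error.

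**Figure D1:**
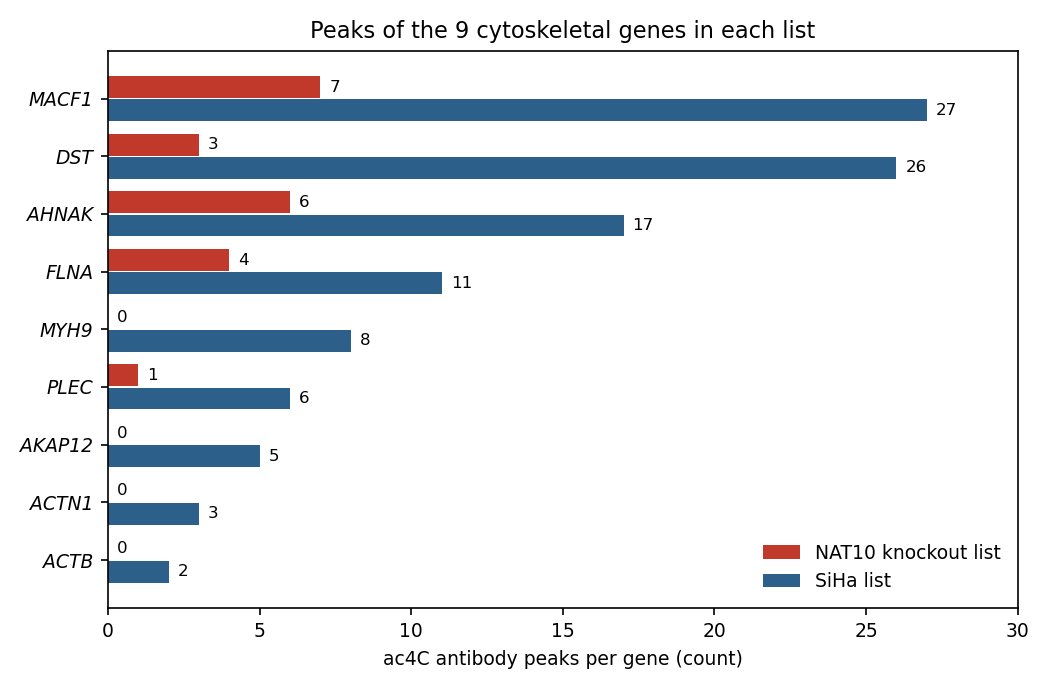
Number of ac4C antibody peaks (horizontal axis, count) of each of the 9 genes, with the NAT10-knockout list as red bars above the SiHa list as blue bars. MACF1 and DST stand at 7 and 3 knockout peaks and 27 and 26 SiHa peaks, and MYH9, AKAP12, ACTN1 and ACTB have no knockout peak; the bars are single counts without an error.

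The SiHa peaks were unevenly divided among the genes. DST, MACF1, FLNA and AHNAK together held 81 of the 105 (77.1%). Of the 6227 named genes with a SiHa peak, MACF1 had the most and DST the second most, AHNAK took rank 5, FLNA rank 9 and MYH9 rank 27. Further down stood PLEC at rank 73, AKAP12 at 135, ACTN1 at 547 and ACTB at 1188. Of all identifiers with a SiHa peak, 4.25% had 5 or more, a level reached by 7 of the 9 genes and one that the choice of the genes used.

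DST encodes dystonin, a spectraplakin that links intermediate filaments, actin and microtubules. Its 3 knockout peaks covered 482 bases and its 26 SiHa peaks covered 9112 bases on the minus strand of chromosome 6. RefSeq lists 3 start sites for DST, at bases 56954830, 56851905 and 56642889. All peaks of both lists lay past the second of these, and 3 of 3 knockout peaks and 23 of 26 SiHa peaks lay past all of them. The widest SiHa peaks were 1 of 810 bases between 56553264 and 56555762 (−log10 p 76.5) and 1 of 691 bases between 56552214 and 56552904, whose p is listed at 0. A second peak with p listed at 0 covered 481 bases between 56606157 and 56606637.

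The knockout peaks of DST had deposited folds of 25.6, 4.27 and 48.7, ratios whose denominator the sources used here do not give. The peak with a fold of 4.27, of 121 bases between 56509654 and 56509774, was the only knockout peak of DST that overlapped a SiHa peak, by 31 bases. The other two lay 239 and 10234 bases from the nearest SiHa peak of the gene. The nearer one covered bases 56604418 to 56604598, beside SiHa peaks that begin at 56604838, 56605528 and 56606157. At the level of the gene DST therefore has peaks in both lists, while 25 of its 26 SiHa peaks had no knockout peak on them.

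MACF1 encodes the other spectraplakin, a microtubule-actin crosslinker. Its 7 knockout peaks covered 1177 bases and its 27 SiHa peaks covered 11513 bases on the plus strand of chromosome 1. The listed start sites are at 39084167, 39204695 and 39409073. All peaks of both lists lay past the second, and 3 of 7 knockout peaks and 14 of 27 SiHa peaks lay past the third. The widest SiHa peaks of the 9 genes lay around the third start site, with no block on it. A peak of 1830 bases in 2 blocks between 39388267 and 39410940, with p listed at 0, has its longer block past that site, and 1801 unbroken bases follow between 39411000 and 39412800 (−log10 p 274). Peaks of this width are uncommon, with 81 of more than 1000 bases in the whole SiHa list and 4 among the 9 genes, of which MACF1 and AKAP12 have 2 each.

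Of the knockout peaks of MACF1, 3 overlapped a SiHa peak. The peaks of 151 bases at 39411780 (fold 74.4) and 181 bases at 39412320 (fold 33.3) both lay wholly inside the SiHa peak of 1801 bases. The third, with a fold of 28.2, crossed the same gap as a SiHa peak, with a block that ends at 39327353 and the next that begins at 39328369. The remaining 4 knockout peaks, with folds of 15.4, 10.3, 228 and 6.41, lay 14770, 1709, 689 and 2070 bases from the nearest SiHa peak. The fold of 228 belongs to a peak of 181 bases between 39332305 and 39332485 with a −log10 p of 55.9. Among the 21 knockout peaks of the 9 genes, those with folds of 15.4 and 10.3 are the 2 (9.52%) whose deposited false discovery rate exceeds 0.05, against 25.0% of all knockout peaks.

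PLEC encodes plectin, a plakin that binds keratin and vimentin filaments to actin and to adhesions. Its single knockout peak covered 181 bases with a fold of 2.49, and its 6 SiHa peaks covered 1174 bases. Of the SiHa peaks, 5 ended 803 to 5358 bases before the 3′ end of the span, with −log10 p between 7.89 and 107, and 1 split peak with a −log10 p of 1.77 ended 38611 bases before it. The knockout peak fell between these, 10848 bases from the nearest SiHa peak, and no overlap was found. PLEC is thus a gene with peaks in both lists whose peaks lie at different places. Its SiHa peaks were also the narrowest of the 9 genes, with a mean of 196 bases.

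**Figure D2:**
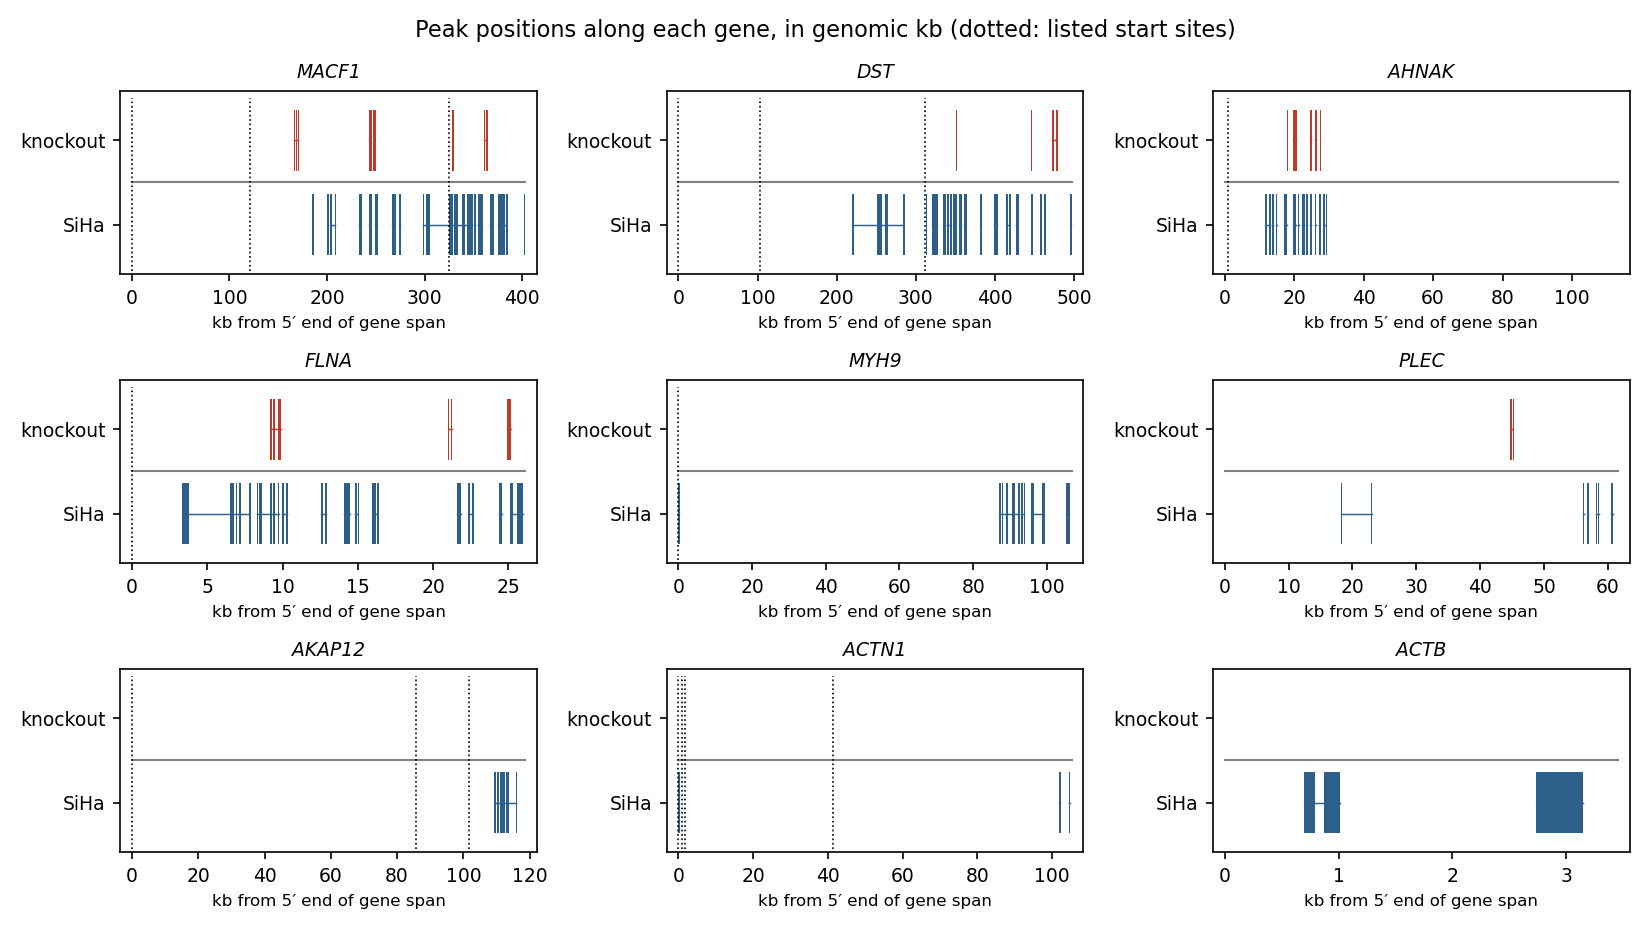
Positions of the peaks of each of the 9 genes, in genomic kb from the 5′ end of the gene span (horizontal axis), with blocks of knockout peaks in red above and blocks of SiHa peaks in blue below, thin lines for the gaps inside split peaks, and dotted lines for RefSeq start sites. The peaks of DST and MACF1 are spread over 276 and 217 kb past the second start site, those of AHNAK and AKAP12 stand in 17.6 and 6.70 kb, and ACTN1 and MYH9 each have 1 SiHa peak at the start.

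FLNA encodes filamin A, which crosslinks actin filaments into networks and anchors them to membrane proteins. Its 4 knockout peaks covered 784 bases and its 11 SiHa peaks covered 3820 bases on the minus strand of the X chromosome, between 154348674 and 154371314. The strongest SiHa peak, with p listed at 0, had 960 bases in 5 blocks between 154366828 and 154371314, toward the 5′ end, and held no knockout base. The next by p covered 391 bases at 154360186 (−log10 p 182), again without a knockout peak on it. Knockout peaks overlapped 2 other SiHa peaks, by 61 bases near the 3′ end and by 242 bases in a SiHa peak of 5 blocks between 154364888 and 154366345.

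In that last SiHa peak, a knockout peak of 241 bases in 3 blocks (fold 8.97, −log10 p 22.5) used the same 2 gaps as the SiHa peak, from 154364957 to 154365136 and from 154365259 to 154365349. The neighbouring knockout peak (fold 1.60, −log10 p 37.9) touched it by 1 base. The knockout peak near the 3′ end had a fold of 16.5, the highest of FLNA. The fourth, with a fold of 2.12, lay 343 bases from the nearest SiHa peak.

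ACTN1 encodes alpha-actinin 1, a crosslinker of actin bundles at adhesions. It had no knockout peak and 3 SiHa peaks, which covered 841 bases on the minus strand of chromosome 14. A peak of 390 bases between 68874532 and 68874921, with p listed at 0, ended 404 bases from the 3′ end of the span, and 1 of 241 bases at 68877185 (−log10 p 8.89) lay next to it. The third, of 210 bases between 68979171 and 68979380 (−log10 p 7.57), lay on the start site at 68979302 and reached 78 bases upstream of it. MYH9 encodes the heavy chain of nonmuscle myosin IIA, the motor that contracts actin bundles. It had no knockout peak and 8 SiHa peaks covering 1926 bases on the minus strand of chromosome 22. Its strongest peaks were 331 bases in 2 blocks between 36295656 and 36297111 (−log10 p 181) and 390 bases in 4 blocks between 36297291 and 36300945 (−log10 p 133). A further peak of 181 bases between 36387838 and 36388018 (−log10 p 6.60) covered the start site at 36387967 and reached 51 bases upstream.

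The start-site peaks of ACTN1 and MYH9 are the only SiHa peaks of the 9 genes on a RefSeq promoter window, the 250 bases before to 50 bases after a listed start site. This makes 2 of 105 SiHa peaks (1.9%, 95% exact interval 0.232 to 6.71%), against 2.36% of the SiHa peaks of all named genes. Of the 9 genes, 7 had 16 such windows, and PLEC and ACTB had no window in the table. The sequences are shown because they are where a peak on the strand of the gene reaches past the listed start. They are from RefSeq (GRCh38.p14), 280 bases each on the minus strand, 5′ to 3′, from 250 bases before the start site to 30 after it, with the bases covered by the SiHa peak in capitals. The first runs from 68979552 down to 68979273 on chromosome 14 and the second from 36388217 down to 36387938 on chromosome 22.
ACTN1: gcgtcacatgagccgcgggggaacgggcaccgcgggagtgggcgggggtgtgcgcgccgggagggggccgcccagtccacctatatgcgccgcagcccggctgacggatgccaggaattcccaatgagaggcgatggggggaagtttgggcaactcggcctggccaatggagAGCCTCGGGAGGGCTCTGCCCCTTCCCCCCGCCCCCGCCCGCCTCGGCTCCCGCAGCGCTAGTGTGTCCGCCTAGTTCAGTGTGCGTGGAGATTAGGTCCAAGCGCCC
MYH9: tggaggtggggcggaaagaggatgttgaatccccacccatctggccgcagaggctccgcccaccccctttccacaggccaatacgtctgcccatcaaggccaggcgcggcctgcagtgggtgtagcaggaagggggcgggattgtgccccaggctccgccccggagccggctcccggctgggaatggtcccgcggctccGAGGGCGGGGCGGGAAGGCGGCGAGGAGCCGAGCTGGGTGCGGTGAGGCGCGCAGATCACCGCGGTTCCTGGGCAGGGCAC

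The ACTN1 sequence holds 108 bases of its peak and the MYH9 sequence 81 bases. Over the full windows of 300 bases, 71.0% of bases were G or C in ACTN1 and 70.3% in MYH9, against a median of 58.7% over all 35116 windows. A share as high as that of ACTN1 was reached by 18.1% of all windows, and 1 as high as that of MYH9 by 19.5%. CpG pairs numbered 29 in ACTN1 and 25 in MYH9, with a median of 14 over all windows. The motif CNNCNNCNNCNN, a C followed by any 2 bases, repeated, as described in the literature for ac4C sites, was searched on both strands, with overlapping matches counted. ACTN1 had 12 matches on the sense strand and 7 on the other, and MYH9 had 3 and 11. At least 1 sense match was present in 74.9% of all windows, and a match on either strand in 90.3%.

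ACTB encodes beta-actin, the subunit of cytoplasmic actin filaments. It had no knockout peak and 2 SiHa peaks covering 659 bases on the minus strand of chromosome 7. The peak toward the 3′ end covered 419 unbroken bases between 5527450 and 5527868, with p listed at 0, and ended 302 bases from the end of the span. The other had 240 bases in 2 blocks between 5529592 and 5529903 (−log10 p 11.7). Beta-actin has near-identical paralogs and many processed pseudogenes, and how reads that map to several of them were treated is not given, so these peaks are less certain than the others.

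AHNAK encodes a giant scaffold protein of the cell cortex, most of which is known to be encoded by 1 very large exon. Its 6 knockout peaks covered 1266 bases and its 17 SiHa peaks covered 5176 bases on the minus strand of chromosome 11. The SiHa peaks stood in 17.6 kb, 15.5% of the span, and every knockout peak lay inside that stretch. All but 1 of the SiHa peaks were unbroken. A p listed at 0 was given for 3, and the median −log10 p of the 17 was 76.7, against 6.05 over all SiHa peaks. Of the 9 genes, the lists met most often in AHNAK: 6 of 6 knockout peaks overlapped a SiHa peak and 5 of 17 SiHa peaks were overlapped.

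These overlaps in AHNAK ranged widely in size. A peak between 62521993 and 62522233 had the same first and last base in both lists, with a −log10 p of 241 and a fold of 10.8 in the knockout list and a −log10 p of 191 in the SiHa list. A knockout peak of 331 bases with a fold of 23.6, the highest of AHNAK, shared 271 bases with a SiHa peak of 451 bases. Knockout peaks with folds of 3.33 and 9.54, of 181 bases each, lay inside the SiHa peak of 960 bases between 62526282 and 62527241. A further knockout peak (fold 11.1) shared 61 bases, and the last (fold 4.03, −log10 p 3.33) touched a SiHa peak by 1 base. The SiHa peaks nearest the 5′ end, between 62531920 and 62535127 and among them 1 of 2 blocks with p listed at 0, were 2938 bases or more from any knockout peak.

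AKAP12 encodes a scaffold that anchors protein kinase A and other signalling enzymes near the membrane and actin. It had no knockout peak and 5 SiHa peaks covering 3446 bases on the plus strand of chromosome 6. All 5 lay past the last of the 3 listed start sites, within 6.70 kb between 151349220 and 151355923. They had the greatest mean width of the 9 genes, 689 bases, with 1079, 1078, 599, 450 and 240 bases each. The widest had p listed at 0, and those of 1078 and 599 bases had −log10 p of 112 and 115. The 2 weaker ones, of 450 and 240 bases, had −log10 p of 14.6 and 2.92.

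The SiHa peaks of the 9 genes were wider and stronger in the authors' p than the list as a whole. Median width was 181 bases in the knockout list and 241 bases in the SiHa list for the 9 genes, against 180 and 181 bases over all peaks. Of their SiHa peaks, 20 of 105 (19.0%) had 500 or more bases, against 6.67% of all, with 7 in MACF1, 6 in DST, 3 each in FLNA and AKAP12 and 1 in AHNAK. A p listed at 0 was found for 11 of 105 (10.5%), against 2.39% of all. The median −log10 p of the 9 genes was 14 in the knockout list and 19.2 in the SiHa list, against 5.46 and 6.05 over all peaks. Widths came in steps. A width that is a multiple of 30 bases, or 1 base more, was found for 96.2% of the SiHa peaks of the 9 genes. Over all SiHa peaks it was 84.1%, and widths 1 base short of a multiple were not counted.

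**Figure D3:**
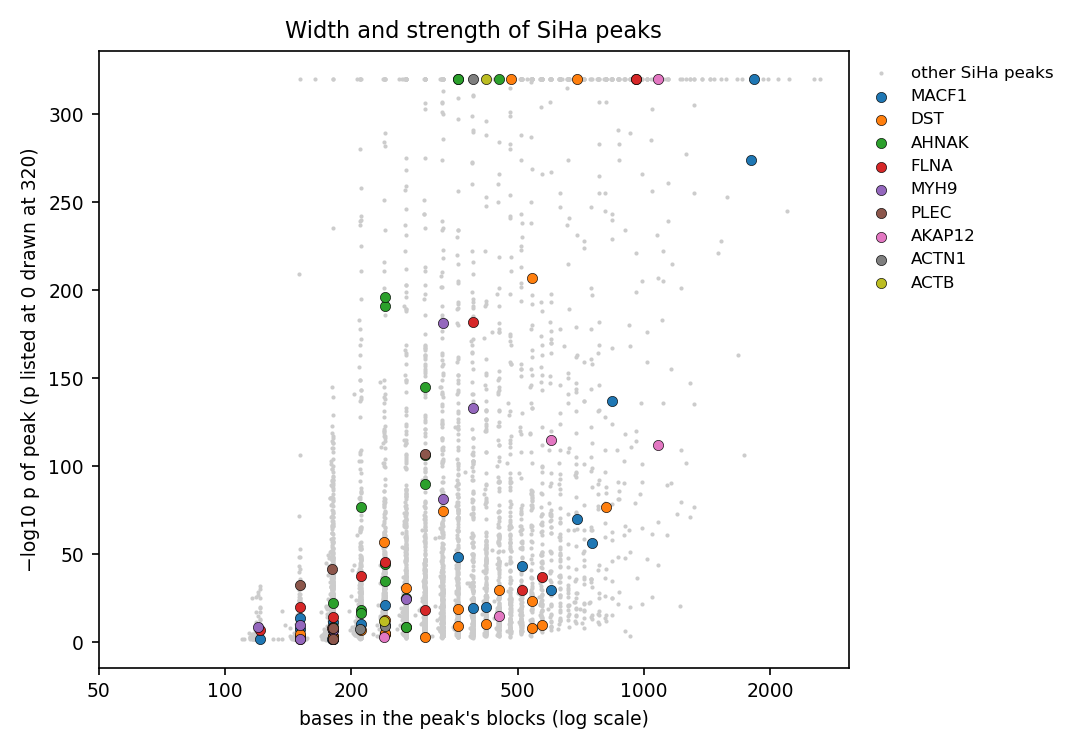
Every SiHa peak by the bases in its blocks (horizontal axis, log scale) and −log10 p (vertical axis, p listed at 0 drawn at 320), with the 9 genes in colour and all other SiHa peaks in grey; knockout peaks are not drawn. Among the 9 genes, the MACF1 peaks of 1830 and 1801 bases and the AKAP12 peaks of 1079 and 1078 bases stand farthest right. Some grey peaks are as wide or wider, and most PLEC peaks lie at about 180 bases.

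Strength differed between the genes. ACTB was left out of the medians below, since 1 of its 2 SiHa peaks has p listed at 0 and the other a −log10 p of 11.7. The median −log10 p of SiHa peaks was 112 in AKAP12 and 76.7 in AHNAK, then 29.4 in FLNA, 20.4 in PLEC and 16.9 in MYH9. It was 11.4 in MACF1, 9.51 in DST and 8.89 in ACTN1, so the 2 genes with the most peaks had many weak ones beside their strong ones. In DST 10 and in MACF1 11 SiHa peaks had a p above 1e-08, while AHNAK had 0.

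Many of these peaks were split. Of the SiHa peaks of the 9 genes, 49 of 105 (46.7%) were split in blocks, against 25.2% of all SiHa peaks. MACF1 had 18 split SiHa peaks, DST 15, FLNA 8 and MYH9 4, whereas PLEC, ACTB, AHNAK and AKAP12 had 1 each and ACTN1 had 0. The gaps inside the peaks seldom matched between the lists, with 3 gaps in both lists out of 10 in knockout peaks (30%) and 79 in SiHa peaks (3.8%). Over all peaks, the shared gaps were 7.47% of those in the knockout list and 3.16% of those in the SiHa list. The 3 shared gaps are those of MACF1 and FLNA given above.

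Few of the SiHa peaks stood close to the 3′ end of a span, although most of the 9 genes had a peak near it. Within 1000 bases of the span end stood 5 of 105 SiHa peaks of the 9 genes (4.76%), against 19.2% of the SiHa peaks of all named genes. Spans differ in length and in exons, which were not used here. The share is also over peaks, so genes with many peaks weigh most in it. A gene with many peaks can hold only a few of them so close to its end. The choice of the genes by peak number therefore bears on the share, and none was computed for other genes with many peaks. Whether the places of the peaks differ from those in such genes was not tested. FLNA, ACTB, ACTN1, MYH9 and PLEC each had 1 peak within 1000 bases of the end, at 143, 302, 404, 750 and 803 bases. The nearest peak of DST was 1011 bases from the end, of MACF1 1220, of AKAP12 2636 and of AHNAK 83980.

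At the level of genes, 4 of the 9 (44.4%, 95% exact interval 13.7 to 78.8%) had a SiHa peak and no knockout peak, namely MYH9, AKAP12, ACTN1 and ACTB. Of all identifiers with a SiHa peak, 73.0% had no knockout peak. That share depends on how many peaks a gene has. It was 78.5% of the 4312 identifiers with 1 SiHa peak, 69.0% of those with 2, 62.0% of those with 3 or 4, 55.3% of those with 5 to 9, and 11.8% (2 of 17) of those with 10 to 27. DST, MACF1, FLNA and AHNAK are 4 of these 17 genes, and all 4 have knockout peaks. MYH9, AKAP12 and PLEC belong to the 293 genes with 5 to 9 SiHa peaks, and 2 of these 3 had no knockout peak. The 2 genes with 10 or more SiHa peaks and no knockout peak are MTCL1 and NAV1, outside the 9.

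At the level of places, 10 of 105 SiHa peaks of the 9 genes (9.52%, 4.66 to 16.8%) were overlapped by a knockout peak, against 6.76% of all SiHa peaks. Peaks of 1 gene are not replicates, so the intervals cover counting only and are no test. From the other side, 13 of 21 knockout peaks (61.9%, 38.4 to 81.9%) were overlapped by a SiHa peak, against 19.2% of all knockout peaks and 34.1% of those in genes that also have a SiHa peak, as all 21 do. The 9 genes carry many and wide SiHa peaks, and the overlap that this alone would give was not tested. Counting only genes that have both knockout and SiHa peaks, 20.5% of all SiHa peaks of such genes were overlapped, and 11.5% of the 87 SiHa peaks of DST, MACF1, PLEC, FLNA and AHNAK. Within the 5 genes, SiHa peaks were overlapped 5 times in AHNAK, 2 times each in MACF1 and FLNA, once in DST and never in PLEC. Among all 17 identifiers with 10 to 27 SiHa peaks, DST, MACF1, FLNA and AHNAK included, 32 of 248 SiHa peaks (12.9%) were overlapped. Over all 9 genes, the 10 overlapped SiHa peaks, 5 of them in AHNAK, had a median −log10 p of 134 and the others 18.0. Median widths were 346 and 241 bases in the same order. The others include all SiHa peaks of MYH9, AKAP12, ACTN1 and ACTB, so this contrast is also one between genes. Of the 13 overlapping pairs, 2 shared 1 base only, against 53 of 955 pairs over both lists.

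Many knockout folds sit on a repeated step, whole multiples of 2.56, and this holds for 60.6% of all knockout peaks. Of the 21 knockout peaks of the 9 genes, 7 (33.3%) sat on it, 5 in MACF1 and 2 in DST. They include the fold of 228 in MACF1 and those of 48.7 and 25.6 in DST. None of the knockout peaks of AHNAK, FLNA and PLEC sat on the step. Whether folds on and off the step share a scale is not known, so they were not ranked across genes.

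The genes most like DST, AHNAK and AKAP12 were found by the distance between log2(peaks + 1) values over the 2 lists, so on 2 points per gene. FAT1, with 2 knockout peaks and 18 SiHa peaks, was nearest to DST (distance 0.66), followed by VCAN with 3 and 15 (0.75), AHNAK2 with 6 and 25 (0.81), MAP1B with 2 and 14 (0.94) and AHNAK (1.0). Nearest to AHNAK were AHNAK2 (0.53), FN1 with 7 and 11 (0.62), MACF1 (0.67), FLNA (0.76) and VCAN (0.83). AKAP12 tied with 89 genes that also have 0 knockout peaks and 5 SiHa peaks, the first by name being ARHGAP21, ARHGEF17, ARHGEF28, ARHGEF40 and ASXL2.

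Other genes of the cytoskeleton were set beside the 9 in 10 lists by role, 134 genes in all. Of these, 42 had peaks in both lists, 37 in the SiHa list alone, 15 in the knockout list alone and 34 in neither. A further 6 had peaks only under other identifiers of the same span. Over the whole lists, 1971 of the 3726 identifiers with a knockout peak also had a SiHa peak, and the others had knockout peaks alone. Among the 79 role-list genes with a SiHa peak, 37 (46.8%) had no knockout peak, against 73.0% of all identifiers. These 79 genes had a median of 2 SiHa peaks, and 69.0% of all identifiers with 2 SiHa peaks had no knockout peak. The cause of the lower share was not tested. SiHa peaks of the 79 genes were overlapped in 18 of 234 cases (7.69%), close to the 6.76% of all SiHa peaks. The 134 genes carried 85 knockout peaks in all.

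By role, the linkers closest to DST and MACF1 were divided. SPTBN1, a spectrin, had 1 knockout peak and 11 SiHa peaks, SYNE1, a nesprin that ties the nucleus to actin, had 1 and 7, and DSP, the desmosomal plakin, had 1 and 4. Others had more knockout than SiHa peaks: SYNE2, the related nesprin, had 5 and 0, EPPK1, which encodes the plakin epiplakin, had 4 and 2, and SPTAN1, a spectrin, had 2 and 0. Of 12 linkers, 4 had peaks in both lists and 2 each in one alone. Of the 6 linkers with a SiHa peak, 33.3% had no knockout peak, against 73.0% of all identifiers.

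Among the 21 crosslinkers, 8 had peaks in both lists, 4 in the SiHa list alone and 2, FLNC and LCP1, in the knockout list alone. Of the 12 crosslinkers with a SiHa peak, 33.3% had no knockout peak, against 73.0% of all identifiers. FLNC, a paralog of FLNA, had 1 knockout peak and 0 SiHa peaks, and SVIL, which encodes supervillin, had 0 and 7. Of the 8 actins and monomer-binding or capping proteins with a SiHa peak, 7 (87.5%) had no knockout peak, against 73.0% of all identifiers. A further 3 of the 16 genes, CFL2, GSN and CAPZA2, had a knockout peak alone. ACTA2, a paralog of ACTB, had 0 knockout peaks and 2 SiHa peaks.

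Of the 11 myosins and regulators of contraction with a SiHa peak, 5 (45.5%) had no knockout peak, against 73.0% of all identifiers, and ROCK1 had a knockout peak alone. MYLK, the kinase of the myosin light chain, had 0 knockout peaks and 5 SiHa peaks, and MYO10, a myosin of filopodia, had 2 and 4. The tropomyosins TPM1 and TPM3, which coat actin filaments, had 1 and 7 and 1 and 2 peaks in the knockout and SiHa lists, each with an overlap, and TPM4 had 1 and 0. Of the nucleators with a SiHa peak, 4 of 8 had no knockout peak, and of the focal adhesion genes 6 of 12, both 50% against the same 73.0%. Among these roles ARPC1A, FERMT2 and PDLIM7 had a knockout peak alone. VCL, which encodes vinculin, had 2 knockout peaks and 4 SiHa peaks, and ENAH had 0 and 4.

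AHNAK2, the paralog of AHNAK, had 6 knockout peaks and 25 SiHa peaks, of which 3 were overlapped. The kinase anchors AKAP1, AKAP8, AKAP9 and AKAP11 had 1, 0, 1 and 0 knockout peaks and 3, 1, 0 and 2 SiHa peaks. The span of AKAP13 held 3 knockout peaks and 8 SiHa peaks under other identifiers, against 0 and 5 in AKAP12. VIM, the intermediate filament protein that plectin binds, had 2 and 6 peaks with 1 overlap. MAP1B, a microtubule-associated protein, had 2 and 14, and DYNC1H1, the dynein heavy chain, had 0 and 5. No test of these lists was made, since genes are not replicates of a condition.

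**Figure D4:**
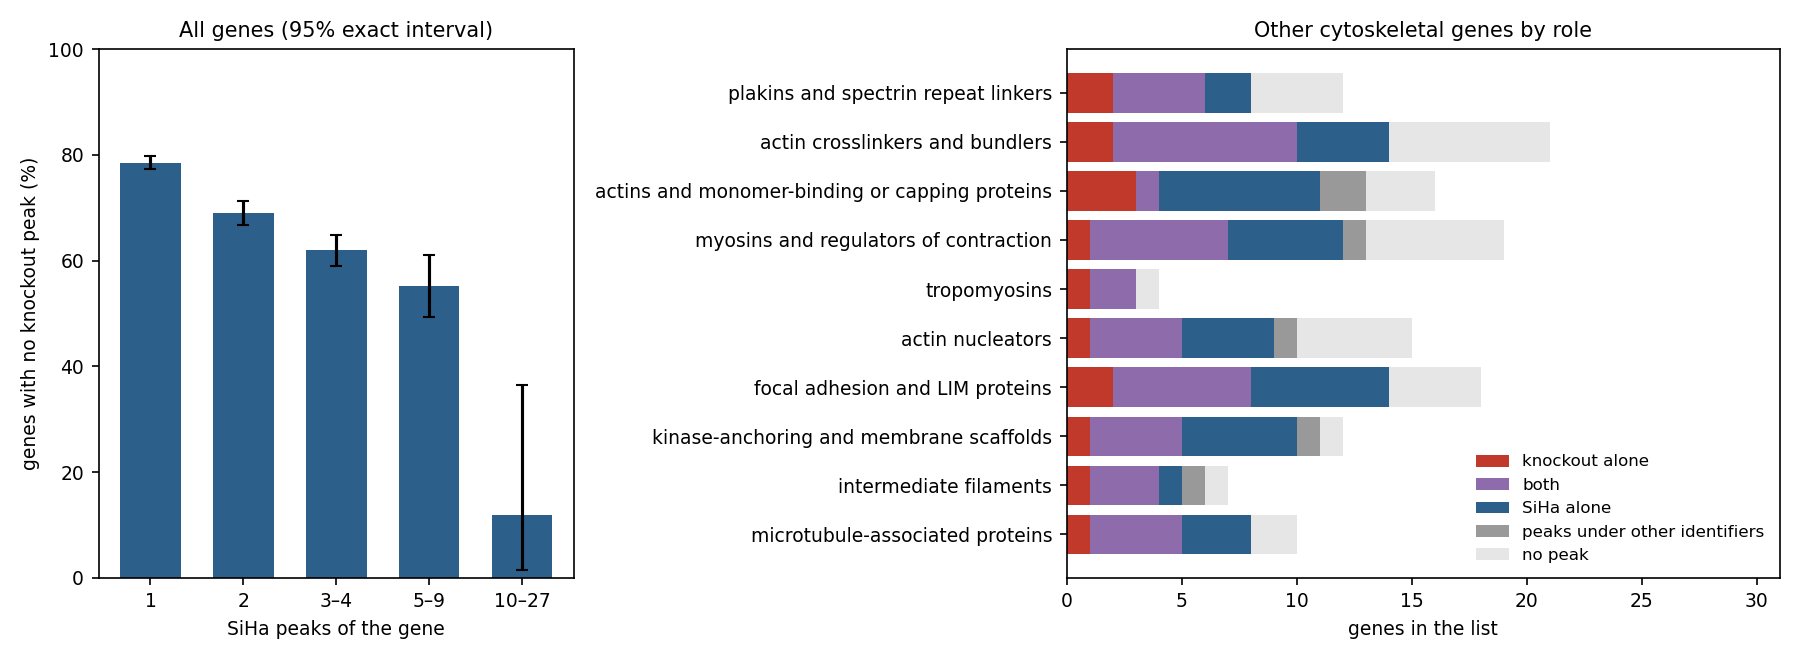
Left, the percent of genes with a SiHa peak that have no knockout peak (vertical axis) by the number of SiHa peaks of the gene (horizontal axis), with 95% exact intervals that cover counting only; right, the number of genes (horizontal axis) of each role list with peaks in the knockout list alone, in both, in the SiHa list alone, under other identifiers or in neither. The share falls from 78.5% at 1 SiHa peak to 11.8% at 10 to 27, and the list of actins and monomer-binding or capping proteins has 1 gene with peaks in both lists and 7 with SiHa peaks alone.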

How the data were processed

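Immunoprecipitated and input RNA of NAT10-knockout SiHa and SiHa cells was sequenced, and the deposited values are 1 peak list per population. FastQC 0.11.7 and GRCh38 (hg38) are named in the submitters' processing notes. Of the aligner, peak caller, annotation and any pooling of replicates nothing is given in the sources used here. Per the file headers, both lists give a p-value per peak, in a column headed score. Per the file headers, the knockout list adds log10 scores of the p-value and the false discovery rate, and the fold enrichment as a ratio. All are the authors' values, used within a list to describe or filter its peaks.

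Left out were 2 knockout peaks and 3 SiHa peaks that lie off the chromosomes, and 1 repeated SiHa line. Identifiers were named by RefSeq spans of GRCh38.p14 on the same strand holding 90% of their peak bases, and 7671 of 9046 (84.8%) received a name. Another 515 lay outside spans, 513 shared a span and 347 touched several. Overlap means 1 shared base of blocks on 1 strand. Distances and spans include introns. Intervals are 95% exact (Clopper-Pearson) and cover counting only. Python 3.11.15, pandas 2.3.3, numpy 2.4.6, SciPy 1.17.1 and matplotlib 3.10.9 were used. Naming and overlap were tested on simulated data. No p-value was computed, since there is 1 list per population.

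The members and the role lists were chosen with earlier results of these data known. Named were the 9 genes, NAT10, up to 3 genes per role list for each of both lists, SiHa alone and knockout alone by peak number, and the 5 genes most like DST, AHNAK and AKAP12. MTCL1, NAV1, EPPK1, AKAP13 and markers were named after their values were seen, and not all genes that the rule names are described. Alternatives were stricter peaks, the authors' false discovery rate, a SiHa list reduced to the length of the knockout list, folds off the repeated step, genes by span and other definitions of overlap.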

Additional observations from a re-analysis of the deposited data

How the results depend on the processing

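No paired analysis was possible because the lists hold no value of a single replicate, and leaving out a replicate was not possible for the same reason. With only peaks of −log10 p above 8 in both lists, knockout peaks of the 9 genes numbered 13, against 21. When only as many of the strongest SiHa peaks were used as there are knockout peaks, 63 SiHa peaks of the 9 genes were left, against 105, and 17 of 49 role-list genes (34.7%, against 65.5% of all identifiers) had no knockout peak, against 37 of 79. With an overlap of over 50% of both peaks, 3 SiHa peaks of the 9 genes were overlapped, against 10, and 7 of the 9 genes had no such overlapped peak, with MACF1 and AHNAK the exceptions. Counting a gene as without a knockout peak when none of its SiHa peaks is overlapped gave 64 of the 79 role-list genes. For these overlap settings no share over all identifiers was computed, while 6.76% of all SiHa peaks were overlapped by 1 base or more. The 6 counts above moved by more than 1.5 times, and the cause was not tested beyond the fewer peaks or stricter overlap that each setting imposes. The other 25 counts did not, but with only peaks of −log10 p above 8 the role-list share without a knockout peak was 70.9% (39 of 55, against 84.8% of all identifiers), against 46.8%. PLEC joined the genes without a knockout peak at −log10 p above 8 and when a gene was counted by overlap. Depth and replicate spread are unknown, so no value here has an error beyond counting.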
